A study of Mus musculus with 24 samples.

Results

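The comparison set control 4-cell mouse embryos of a PR-DUB overexpression experiment against control 2-cell embryos of the same experiment. PR-DUB is the enzyme complex that removes ubiquitin from histone H2A. The members were the genes with at least 1 FPKM (fragments per kilobase of transcript, scaled to the mapped fragments) in both libraries of either stage. They numbered 11954 of the 46078 genes of the deposited table. Both stages passed for 8291 of them, the 4-cell stage alone for 1797 and the 2-cell stage alone for 1866. Members of the last 2 kinds passed only through the stage where they are high, and their counts are given as a description. Just inside the limit lay Gm22514, with 1.0 and 1.6 FPKM at the 4-cell stage and 0 in both 2-cell libraries. Just outside it lay Rnf43, with 0.478 and 0.417 FPKM at the 4-cell stage against 1.01 and 0.997 FPKM at the 2-cell stage.

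The 4-cell group had 2 libraries of 19 pooled embryos each, and the 2-cell group had 2 libraries of 15 pooled embryos each. All 4 pools came from a B6/DBA by PWK cross of wild-type parents and carried the control mark of the PR-DUB experiment; what these control embryos received is not in the labels. Their stage change was set beside those of PR-DUB-overexpressing embryos (PR-DUB OE; pools of 16 embryos at the 4-cell stage and 15 at the 2-cell stage) and of the KDM6B control embryos (KDM6B CTR; the 2-cell pools held 17 and 18 embryos). Both came from the same cross, with 2 libraries per stage and no library shared. An earlier interval was taken from 2 libraries of late 2-cell embryos of a B6/DBA by B6/DBA cross and 2 of B6/DBA oocytes arrested at metaphase II (MII), all wild type. The labels do not say that 2 libraries of a group were collected separately, so p-values measure the spread between the libraries of a group, which may be technical. For the stage changes it was estimated per gene over all 16 libraries of the PR-DUB and KDM6B experiments, so over more than the libraries compared.

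In the mouse the embryonic genome becomes active at the 2-cell stage, when most messages laid down in the oocyte are already being cleared. A burst of 2-cell-specific genes, such as the Zscan4, Usp17l and Tdpoz families, is known from this stage. By the 4-cell stage the embryo is known to transcribe the genes of ribosomes, splicing and metabolism at a rising rate.

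Depth was alike at both stages. If the smallest step between FPKM values stands for 1 fragment, the 4-cell libraries held 15.3M and 12.0M fragments and the 2-cell libraries 14.9M and 14.1M, so that a transcript of 2 kb at 1 FPKM rested on 24 to 30.6 fragments. Between 10855 and 11087 genes reached 1 FPKM in each library. Nuclear protein-coding genes took 36.3% and 36.1% of the FPKM sum at the 4-cell stage against 43.8% and 45.9% at the 2-cell stage. The libraries were made from total RNA, per the labels, and 5 noncoding transcripts had the highest mean levels at both stages: Gm23935, mt-Rnr2, mt-Rnr1, Rn7sk and Rn7s1. Gm23935 alone took 19.5% and 22.7% of the FPKM sum at the 4-cell stage against 19.7% and 18.3% at the 2-cell stage. Some genes that every cell uses were listed at 0 in single libraries, such as Ndufs6, of respiratory complex I, in 2 of these 4 libraries, so a value of 0 can be a failed estimate and is given here as listed.

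Of 15 cumulus and granulosa cell markers, 14 stayed below 1 FPKM in all 4 libraries and 6 were listed at 0 throughout, Amh, Fshr and Ptx3 among them. Their summed level was 19.9 and 21.1 FPKM at the 4-cell stage against 5.32 and 2.90 FPKM at the 2-cell stage, nearly all of it from Kitl, a growth factor gene. Of 15 blood and somatic markers, 7 were listed at 0 throughout and 11 stayed below 1 FPKM; the sum was 39.0 and 38 FPKM at the 4-cell stage against 9.93 and 9.84 FPKM at the 2-cell stage, with Pecam1 giving 33.8 and 31.2 FPKM against 9.56 and 9.02 FPKM. Of 15 sperm and testis markers, 8 were listed at 0 throughout; the sum was 2.60 and 3.51 FPKM at the 4-cell stage against 3.69 and 8.16 FPKM at the 2-cell stage. Their part in the results was not tested. The oocyte and early embryo genes Zp3, Gdf9, Nlrp5, Oog1, Dppa3 and Pou5f1 were above 1 FPKM in all 4 libraries, as were 5 of 6 defining 2-cell genes, with Zscan4d at 0.912 FPKM in 1 of the 2-cell libraries.

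Of the 11954 members, 3755 (31.4%) rose at the 4-cell stage, 4254 (35.6%) fell and 3945 (33.0%) were not called. Among all 15055 genes tested, 26.5% were called higher and 30.2% lower, 56.7% in all. A call is an adjusted p under 0.05 in limma on log2(FPKM + 1) (Benjamini-Hochberg adjusted across all genes tested); a log2 change given below is 4-cell minus 2-cell on that scale, with its standard error (SE), and understates the change of low genes. The median change was -0.08 over the members and -0.04 over all genes tested. A rise of at least 2 on the log2 scale was seen for 917 members and a fall of at least 2 for 1182. Of the members that rose, 229 were listed at 0 in both 2-cell libraries, and of those that fell, 93 were listed at 0 in both 4-cell libraries. With libraries rescaled to a common median, 3755 of 3755 rises and 3858 of 4254 falls were called in the same direction. The split over members became 4201 higher and 3858 lower, and over all genes tested 4499 higher and 4109 lower. Scaling to the protein-coding total instead gave 3670 higher and 4868 lower over all genes tested. Which direction held more genes thus depended on the scaling. In these bulk pools a change in the share of embryos or cells that carry a message and a change in its amount per cell cannot be told apart.

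**Figure D1:**
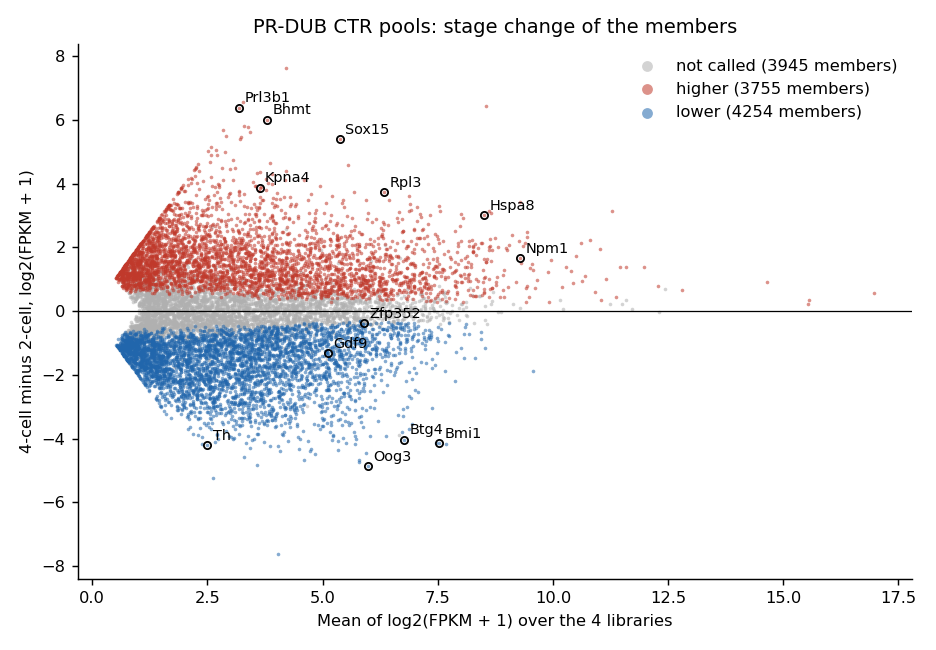
Stage change of each member (4-cell minus 2-cell, log2(FPKM + 1), vertical axis) against its mean level over the 4 libraries (horizontal axis). Red points rose (3755), blue points fell (4254) and grey points were not called (3945); circled genes are named in the text.

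The kinds of transcript moved unequally. Of 9983 protein-coding members, 2927 rose and 3887 fell, with a median change of -0.22. Of 763 processed pseudogenes, which are copies of spliced messages put back into the genome, 384 rose and 113 fell; 77 of them are named after ribosomal protein genes, and 68 of these rose and 2 fell. Reads of such copies and of their parent genes cannot be told apart here. Among small RNA genes, 88 of 225 snoRNAs rose and 6 fell, and 30 of 65 snRNAs rose and 4 fell. Of 36 members encoded on mitochondrial DNA, 33 rose. Of 180 long intergenic RNAs, 48 rose (26.7%) and 75 fell (41.7%), near the protein-coding shares of 29.3% and 38.9%. Antisense transcripts leaned somewhat further to falls, with 22 of 104 higher (21.2%) and 47 lower (45.2%). Over all members the shares were 31.4% higher and 35.6% lower. Protein-coding members that rose had a median exonic length of 3916 bases, against 5027 for those that fell and 4401 for those not called.

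Transcription factor genes among the 15 leading risers were Hand1, Foxa1, Sox15 and Tfeb. Hand1, a basic helix-loop-helix factor needed for trophoblast giant cells, had 53.2 and 47.0 FPKM at the 4-cell stage and was listed at 0 in both 2-cell libraries. Foxa1, a pioneer factor of the endoderm, had 35.6 and 36.0 FPKM at the 4-cell stage against 0.166 and 0.0667 FPKM at the 2-cell stage. Sox15, an HMG-box factor, had 288 and 248.1 FPKM against 5.0 and 5.76 FPKM. Tfeb, the regulator of lysosomal genes, had 75.6 and 74.5 FPKM at the 4-cell stage against 0.386 and 0.684 FPKM at the 2-cell stage. The leading risers were chosen for a large change without overlap, so the gap between the stages follows from that choice.

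Others of the 15 leading risers follow. Prl3b1, a prolactin-family hormone of the placenta, had 77.4 and 88.3 FPKM at the 4-cell stage and was listed at 0 in both 2-cell libraries. Bhmt, which remethylates homocysteine with betaine, had 104 and 115 FPKM at the 4-cell stage against 0.707 and 0.746 FPKM at the 2-cell stage. Ckmt1, a mitochondrial creatine kinase, had 78.0 and 73.6 FPKM at the 4-cell stage, and 0 and 0.968 FPKM at the 2-cell stage. In each of these 3 genes both 2-cell values were listed below 1 FPKM. Vnn1, a pantetheinase, had 42.1 and 58.5 FPKM at the 4-cell stage against 0.111 and 0.115 FPKM at the 2-cell stage. Anpep, an aminopeptidase of the cell surface, had 52.7 and 65.5 FPKM against 0.334 and 0.526 FPKM. Cox7c, a subunit of cytochrome c oxidase, had 26 and 32.0 FPKM at the 4-cell stage, and 0.348 and 0 FPKM at the 2-cell stage. Its 0 can be a failed estimate. At the 2-cell stage it had 2.01 and 0.307 FPKM in PR-DUB OE and 3.89 and 3.21 FPKM in KDM6B CTR embryos. Gm5096, Csrp2, Phldb3, Muc3 and Lgals8 complete the 15 leading risers, with log2 changes of 4.47 to 5.46.

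Among the 15 leading fallers, Oog3, of an oocyte-specific gene family, had 9.90 and 11.5 FPKM at the 4-cell stage against 348 and 332 FPKM at the 2-cell stage (log2 change -4.87 ± 0.14, SE; limma adjusted p = 7.15e-10). Wee2, the oocyte kinase that restrains CDK1, had 3.48 and 2.18 FPKM against 65.5 and 73.5 FPKM. Oosp1, an oocyte-secreted protein gene, had 2.94 and 5.43 FPKM at the 4-cell stage against 92.2 and 106 FPKM at the 2-cell stage. Siah2, a ubiquitin ligase, had 9.85 and 9.81 FPKM at the 4-cell stage against 281 and 289 FPKM at the 2-cell stage. The leading fallers were chosen in the same way as the risers, so their distance from the 2-cell libraries follows from that choice. Slain1, a microtubule plus-end protein gene, had 9.30 and 10.7 FPKM at the 4-cell stage against 286 and 274 FPKM at the 2-cell stage. Th, tyrosine hydroxylase, had 0.170 and 0.491 FPKM at the 4-cell stage against 22.3 and 24.3 FPKM at the 2-cell stage. Hist2h2aa1 had 3.58 and 4.08 FPKM at the 4-cell stage, but its 2-cell libraries differed widely, at 65.4 and 227 FPKM. Bmi1, Tesc, Fam199x, 2010107G23Rik, Sebox, Ccdc6, Tcl1b3 and Papd7 complete the 15 leading fallers, with log2 changes of -4.82 to -4.14.

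Genes of the protein synthesis machinery rose together. Of 81 cytosolic ribosomal protein genes among the members, 79 rose, none fell and Rpl21 and Rpl41 were not called; the median change was 2.12. These genes took 5.28% and 5.33% of the FPKM sum at the 4-cell stage against 1.75% and 1.72% at the 2-cell stage. Rpl3, of the large subunit, had 307 and 280 FPKM at the 4-cell stage against 19.1 and 23.1 FPKM at the 2-cell stage (log2 change 3.74 ± 0.21, SE; limma adjusted p = 4.03e-08). Rps18, of the small subunit, had 197 and 242 FPKM against 31.0 and 33.8 FPKM. Rplp1, a stalk protein of the large subunit, had 2533 and 2720 FPKM at the 4-cell stage against 815 and 777 FPKM at the 2-cell stage. The 4-cell libraries lay above the 2-cell libraries for each of the 3 genes. Rpl41 was not called, with 370 and 386 FPKM at the 4-cell stage against 532 and 98.5 FPKM at the 2-cell stage; it was called higher without replicate 1 of the 2-cell stage (log2 change 1.93) and lower without replicate 2 (-0.49). Many ribosomal protein genes have near-identical processed pseudogenes, so their single levels are uncertain.

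Of 44 translation initiation and elongation factors, 35 rose and 2 fell. Eif3d, a subunit of the initiation factor eIF3, had 55.3 and 60.8 FPKM at the 4-cell stage against 1.75 and 4.09 FPKM at the 2-cell stage. Eef1g, a subunit of the elongation factor that loads transfer RNA, had 126 and 115 FPKM against 6.77 and 7.09 FPKM. Eif3j1, which binds loosely to the same eIF3 complex, was among the 2 that fell, with 22.2 and 18.6 FPKM at the 4-cell stage against 54.9 and 59.3 FPKM at the 2-cell stage. Of 81 ribosome biogenesis genes, 43 rose and 12 fell, with a median change of 0.65. Npm1, nucleophosmin, had 1170 and 1056 FPKM at the 4-cell stage against 364 and 340 FPKM at the 2-cell stage, and Ncl, nucleolin, had 459 and 462 FPKM against 122 and 132 FPKM. Dkc1, the pseudouridine synthase of box H/ACA particles, fell, with 50.4 and 51.9 FPKM at the 4-cell stage against 131 and 104 FPKM at the 2-cell stage.

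Upstream sequences of risers are shown for 2 ribosomal protein genes and 2 proteasome genes whose RefSeq promoter window (build GRCm38.p6, 250 bases before to 50 after the start) holds CCGGAAG, the core that ETS-family factors bind. Each is the 150 bases before the RefSeq start, 5′ to 3′ on the gene's strand, with CCGGAAG or its reverse complement in capitals. Rpl37 lies on the plus strand (chr15:5116463-5116612), Rps7 on the minus strand (chr12:28635954-28636103), Psmd4 on the minus strand (chr3:95042615-95042764) and Psmd2 on the plus strand (chr16:20651502-20651651).
Rpl37: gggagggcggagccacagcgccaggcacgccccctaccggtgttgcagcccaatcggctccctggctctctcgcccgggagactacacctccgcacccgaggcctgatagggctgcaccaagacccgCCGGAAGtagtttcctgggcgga
Rps7: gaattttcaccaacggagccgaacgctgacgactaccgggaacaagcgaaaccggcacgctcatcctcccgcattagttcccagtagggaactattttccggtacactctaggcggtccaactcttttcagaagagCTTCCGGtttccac
Psmd4: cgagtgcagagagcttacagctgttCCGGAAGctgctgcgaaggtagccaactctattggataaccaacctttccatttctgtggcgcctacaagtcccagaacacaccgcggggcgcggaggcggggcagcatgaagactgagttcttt
Psmd2: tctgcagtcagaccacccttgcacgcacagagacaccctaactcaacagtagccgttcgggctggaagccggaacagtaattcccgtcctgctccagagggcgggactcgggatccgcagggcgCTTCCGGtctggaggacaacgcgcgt

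A window was matched by symbol for 6221 members, those with exactly 1 RefSeq window. CCGGAAG, sought on both strands of the 300 bases, was present for 24.4% of 1844 members that rose, 15.9% of 2390 that fell and 22.7% of 1987 not called, against 11.3% of all 15529 genes with 1 window. It was present for 21 of 51 ribosomal protein genes (41.2%) and 9 of 24 proteasome genes (37.5%). The share among members that rose was near that among members not called, and a match is a description of the letters only.

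Of 32 proteasome subunits, which form the protease that degrades ubiquitinated proteins, 29 rose and 1 fell, with a median change of 1.58. Psma5, a subunit of the catalytic core's outer rings, had 32.8 and 35.1 FPKM at the 4-cell stage against 2.36 and 1.25 FPKM at the 2-cell stage. Psma6 had 138 in both 4-cell libraries, in FPKM, against 9.22 and 16.4 FPKM. Psmc1, an ATPase of the cap, had 93.5 and 89.3 FPKM at the 4-cell stage against 20.6 and 19.4 FPKM at the 2-cell stage. The catalytic subunit Psmb5 was the member that fell, with 8.61 and 8.12 FPKM at the 4-cell stage against 14.2 and 16.7 FPKM at the 2-cell stage, and it was not called with rescaled libraries.

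Of 26 heat shock and chaperone genes, 14 rose and 3 fell. Hspa8, the constitutive HSP70, had 1096 and 981 FPKM at the 4-cell stage against 129 and 125 FPKM at the 2-cell stage (log2 change 3.02 ± 0.10, SE; limma adjusted p = 1.41e-09). Cct5, a ring subunit of the chaperonin that folds actin and tubulin, had 208 and 207 FPKM against 25.7 and 36.4 FPKM. Another subunit of that ring, Cct3, was not called, at 116 and 113 FPKM against 104 and 112 FPKM. Hsf1, the heat shock transcription factor, fell, with 15.8 and 20 FPKM at the 4-cell stage against 63.5 and 62.4 FPKM at the 2-cell stage. Of 45 spliceosome genes, 29 rose and 1 fell; Snrpb, a core protein of the small nuclear particles, had 125 and 148 FPKM at the 4-cell stage against 12.5 and 14.1 FPKM at the 2-cell stage, while Sf3a1, a subunit of the U2 particle, fell to 11.4 and 10.8 FPKM at the 4-cell stage, against 38.3 and 40.7 FPKM at the 2-cell stage.

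**Figure D2:**
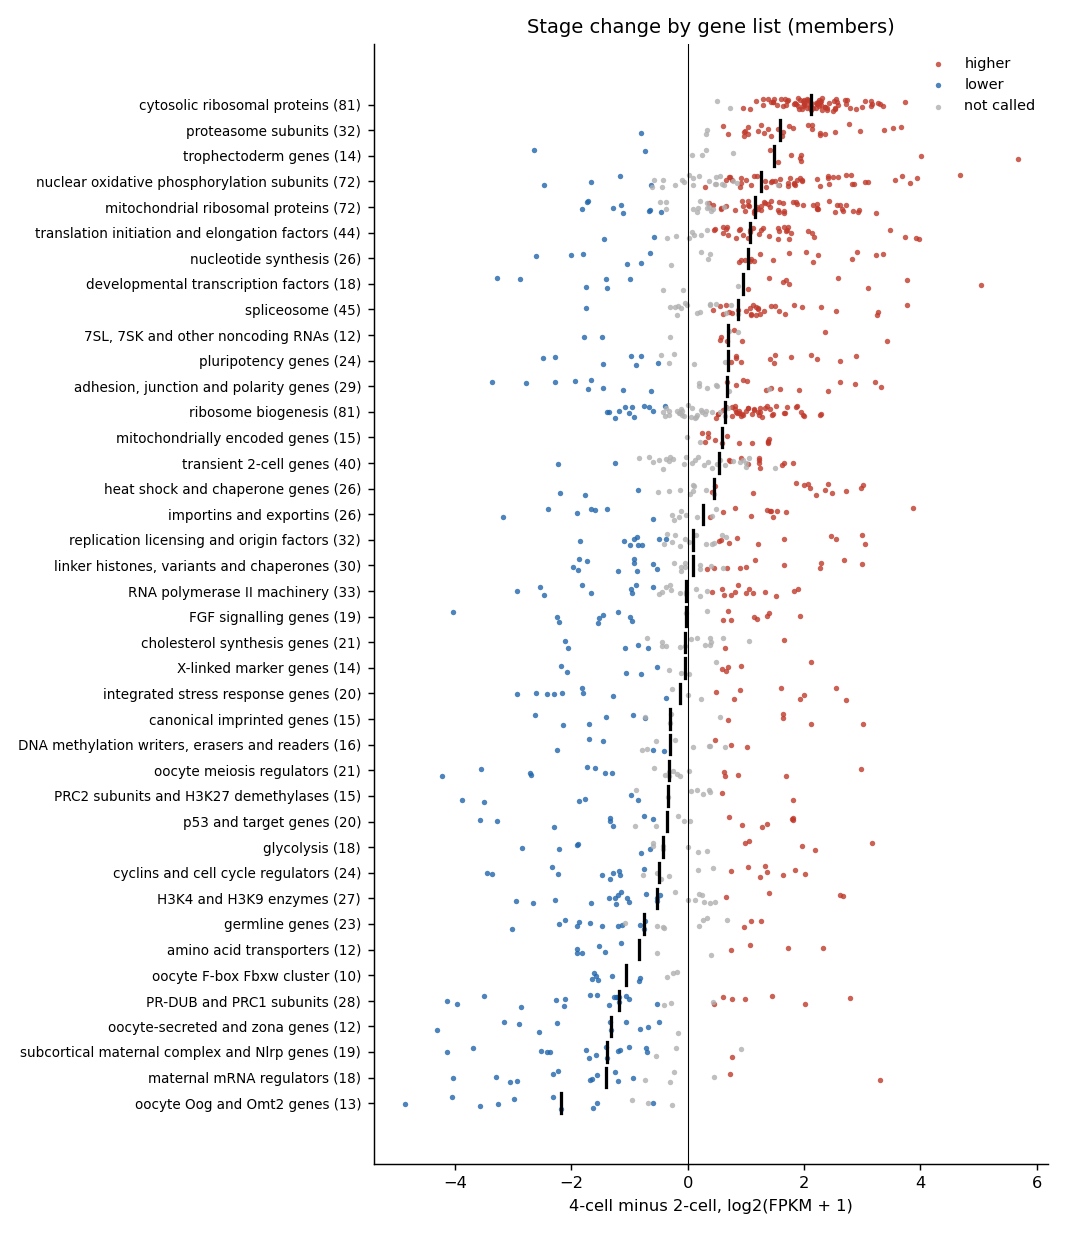
Stage change of each member of the gene lists with at least 10 members (points; red rose, blue fell, grey not called), ordered by the list median (black bar), with the number of members in brackets. Ribosomal proteins lie at the top with a median of 2.12. The list labelled oocyte Oog and Omt2 genes, which also holds Pramel, Pramef and Oas1 genes, lies at the bottom with a median of -2.19.

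Most genes of mitochondrial respiration rose, in both genomes. Of 72 nuclear-encoded subunits of oxidative phosphorylation, 47 rose and 4 fell (median 1.25), and of 72 mitochondrial ribosomal protein genes, 50 rose and 9 fell (median 1.15). Uqcrb, of respiratory complex III, had 45.9 and 43.3 FPKM at the 4-cell stage against 2.61 and 1.45 FPKM at the 2-cell stage. Cox6c, of complex IV, had 240 and 286 FPKM against 34.8 and 38.5 FPKM. Cox7b, of the same complex, went the other way, with 1.67 and 1.51 FPKM at the 4-cell stage against 16.4 and 11 FPKM at the 2-cell stage. Of 15 listed mitochondrially encoded genes, 13 rose: mt-Nd1, of complex I, had 6790 and 6319 FPKM at the 4-cell stage against 2655 and 2336 FPKM at the 2-cell stage. The message of complex III, mt-Cytb, was not called, with 5274 and 4845 FPKM against 5266 and 4962 FPKM.

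In nucleotide synthesis, 16 of 26 genes rose and 6 fell. Impdh2, the committed enzyme of guanine nucleotide synthesis, had 764 and 682 FPKM at the 4-cell stage against 98.5 and 91.2 FPKM at the 2-cell stage. Mthfd1, the cytosolic folate enzyme, had 35.5 and 34.9 FPKM against 2.14 and 3.02 FPKM. Its mitochondrial relative Mthfd2 fell, with 6.34 and 5.61 FPKM at the 4-cell stage against 39.8 and 43.4 FPKM at the 2-cell stage. In glycolysis, with glucose transporters and pyruvate dehydrogenase on the list, 5 of 18 genes rose and 6 fell, near the shares over all members (31.4% and 35.6%). The hexokinase Hk2 had 12.0 and 18.1 FPKM at the 4-cell stage against 0.739 and 0.761 FPKM at the 2-cell stage. Among those that fell, Pkm, pyruvate kinase, had 5.59 and 7.07 FPKM at the 4-cell stage against 52.9 and 50.1 FPKM at the 2-cell stage, and Ldhb, lactate dehydrogenase B, had 17.8 and 16.7 FPKM against 63.4 and 70.5 FPKM. Pdha1, of pyruvate dehydrogenase, rose, with 70.3 and 83.9 FPKM at the 4-cell stage against 18.1 and 20 FPKM at the 2-cell stage. Of 21 cholesterol synthesis genes, 2 rose and 5 fell (4 rose and 4 fell with rescaled libraries).

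Messages of the oocyte fell. Of 12 oocyte-secreted and zona genes, 11 fell and none rose, with a median change of -1.33. Bmp15, an oocyte growth factor of the TGF-beta family, had 12.1 and 11 FPKM at the 4-cell stage against 91.0 and 93.6 FPKM at the 2-cell stage. Its relative Gdf9 had 19.3 and 22.5 FPKM against 54.0 and 52.9 FPKM. Zp3, a zona protein gene, had 9.78 and 8.45 FPKM at the 4-cell stage against 19.7 and 14.4 FPKM at the 2-cell stage. Astl, the protease that cleaves the zona after fertilization, was not called, at 2.80 and 2.97 FPKM against 3.80 and 3.01 FPKM.

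The subcortical maternal complex is used by oocytes to organise the cytoplasm of the early embryo. Of 19 genes on a list of this complex, the Nlrp family and also Khdc1a, Khdc1b and Khdc1c, 15 fell and 1 rose. Zbed3, a member of the complex, had 42.1 and 40.3 FPKM at the 4-cell stage against 688 and 804 FPKM at the 2-cell stage (log2 change -4.14 ± 0.15, SE; limma adjusted p = 1.99e-09). Nlrp5, also called Mater, had 8.88 and 7.94 FPKM against 24.6 and 22.6 FPKM. The riser was Khdc1c, with 420 and 428 FPKM at the 4-cell stage against 258 and 244 FPKM at the 2-cell stage, while its neighbour in the same family, Khdc1b, fell to 28.9 and 34.8 FPKM at the 4-cell stage, against 446 and 396 FPKM at the 2-cell stage. Khdc3 was not called and its 4-cell libraries differed, at 6.38 and 15.8 FPKM against 5.32 and 4.48 FPKM. Of 13 genes on an oocyte list of Oog, Omt2, Pramel, Pramef and Oas1 genes, 10 fell and none rose. Of 10 Fbxw genes of the oocyte cluster, 7 fell and none rose. Near-identical copies within such families make their single levels uncertain.

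Of 18 regulators of maternal message storage and decay, 12 fell and 2 rose. Btg4, the adaptor that brings the deadenylase to maternal messages, had 23.9 and 28.3 FPKM at the 4-cell stage against 439 and 442 FPKM at the 2-cell stage. Cnot6l, a catalytic subunit of that deadenylase, had 5.46 and 5.44 FPKM against 52.4 and 52.5 FPKM. The scaffold of the same complex, Cnot1, rose, with 164 and 161 FPKM at the 4-cell stage against 94.6 and 101 FPKM at the 2-cell stage. So did Zfp36l2, which binds AU-rich elements, with 53.1 and 47.2 FPKM at the 4-cell stage against 3.70 and 4.66 FPKM at the 2-cell stage.

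For genes of meiosis and the cell cycle the counts were near the shares over all members (31.4% higher, 35.6% lower). Of 21 oocyte meiosis regulators, 5 rose and 8 fell, and of 24 cyclins and cell cycle regulators, 8 rose and 10 fell. Cdc25a, a phosphatase that activates cyclin-dependent kinases, had 44.2 and 38.3 FPKM at the 4-cell stage against 3.27 and 5.79 FPKM at the 2-cell stage. Its relative Cdc25c had 9.5 and 8.97 FPKM against 65.2 and 67.7 FPKM. Among the transcription factors of the cycle, E2f5 had 12.5 and 12.7 FPKM at the 4-cell stage against 144 and 149 FPKM at the 2-cell stage, and E2f4 had 8.19 and 10.1 FPKM against 102 and 105 FPKM. The cyclin gene Ccne1 fell, with 168 and 151 FPKM at the 4-cell stage against 459 and 437 FPKM at the 2-cell stage. Of 32 replication licensing and origin factors, 10 rose and 9 fell; Orc4, of the origin recognition complex, had 89.5 and 84.3 FPKM at the 4-cell stage against 14.7 and 15.4 FPKM at the 2-cell stage, whereas Gmnn, geminin, the inhibitor of licensing, had 98.4 and 90.9 FPKM against 173 and 156 FPKM.

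**Figure D3:**
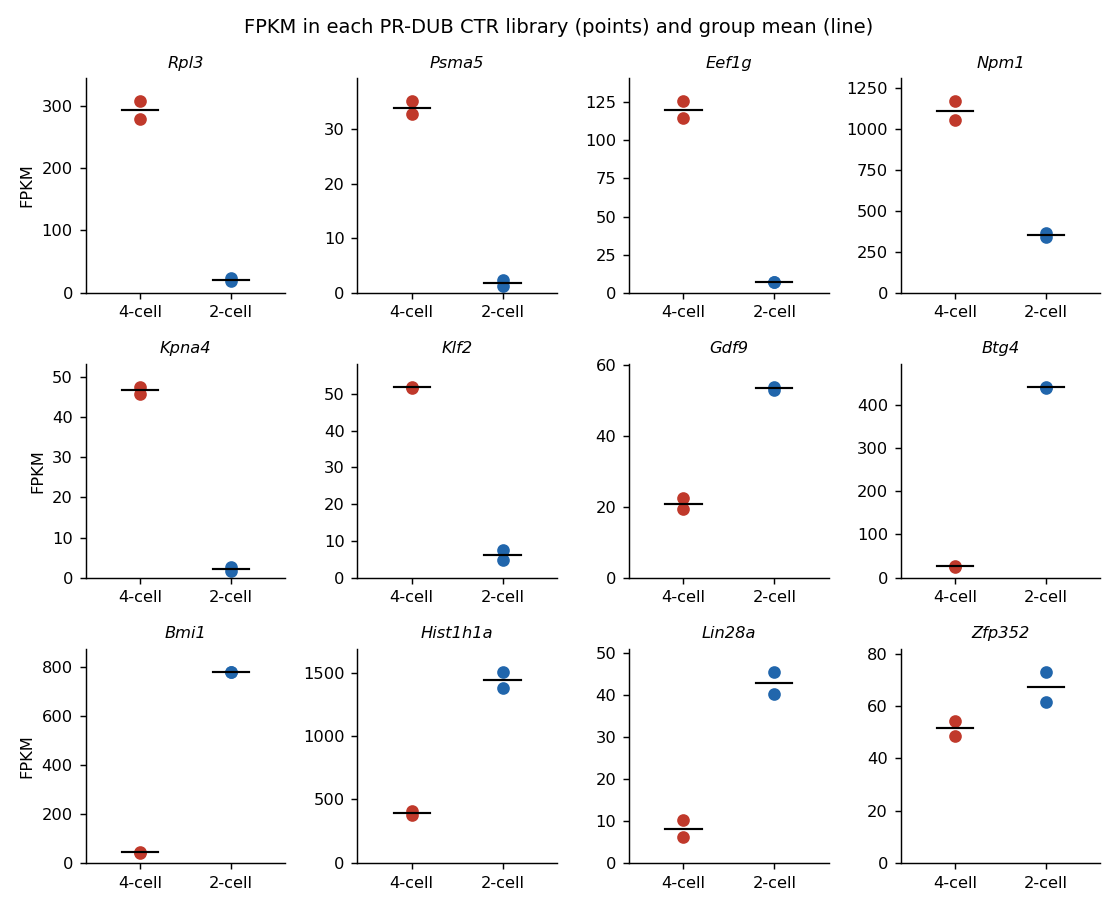
FPKM of 12 genes in each PR-DUB CTR library (points, 4-cell left and 2-cell right, n = 2 each; linear axis from 0) with the group mean as a line. Rpl3 stands at 307 and 280 FPKM at the 4-cell stage and 19.1 and 23.1 FPKM at the 2-cell stage, and Btg4 at 23.9 and 28.3 against 439 and 442 FPKM.

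Of 28 genes of PR-DUB and of PRC1, the complex that places ubiquitin on H2A, 18 fell and 7 rose (median -1.18). Over all members 35.6% fell and 31.4% rose. Bap1, the deubiquitinase of PR-DUB, had 6.02 and 6.20 FPKM at the 4-cell stage against 18.3 and 16.1 FPKM at the 2-cell stage. Of its partners, Asxl2 rose, with 40.4 and 36.9 FPKM against 18.1 and 19.8 FPKM, and Asxl1 was not called, with 12.9 and 12.2 FPKM against 17.2 and 16.8 FPKM. Rnf2, the catalytic subunit of PRC1, had 44.8 and 47.5 FPKM at the 4-cell stage against 114 and 98.0 FPKM at the 2-cell stage. Bmi1, of canonical PRC1, had 41.4 and 44.9 FPKM at the 4-cell stage against 780 and 778 FPKM at the 2-cell stage (log2 change -4.14 ± 0.11, SE; limma adjusted p = 2.03e-10). Of the chromodomain subunits, which bind H3K27me3, Cbx2 fell, with 2.78 and 2.56 FPKM at the 4-cell stage against 42.0 and 39.4 FPKM at the 2-cell stage. Cbx8 rose, with 2.56 and 3.03 FPKM at the 4-cell stage against 0.339 and 0.435 FPKM at the 2-cell stage.

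Of 15 genes of PRC2, the H3K27 methyltransferase, and of the H3K27 demethylases, 2 rose and 6 fell. Shares over all members were 31.4% higher and 35.6% lower. Of the core subunits, Ezh2 had 103 and 97.7 FPKM at the 4-cell stage against 85.8 and 93.2 FPKM at the 2-cell stage and Eed 54.4 and 51.2 FPKM against 38.8 and 43.1 FPKM, neither called (Eed was called higher with rescaled libraries). Suz12 fell, with 149 and 139 FPKM at the 4-cell stage against 279 and 289 FPKM at the 2-cell stage. The accessory subunit Phf1 fell further, with 9.27 and 8.2 FPKM at the 4-cell stage against 138 and 146 FPKM at the 2-cell stage. Of the demethylases, Kdm6b had 5.31 and 5.24 FPKM against 21.1 and 23.1 FPKM, and Kdm6a had 22.8 and 22.4 FPKM against 13.2 and 16.4 FPKM. Of 27 enzymes of H3K4 and H3K9 methylation, 4 rose and 15 fell (8 and 12 with rescaled libraries). Ehmt2, an H3K9 methyltransferase also called G9a, had 36.3 and 38.1 FPKM at the 4-cell stage against 4.18 and 6.39 FPKM at the 2-cell stage, while Suv39h2, another of these enzymes, had 2.40 and 4.92 FPKM against 37.1 and 31.0 FPKM. Tet3, which oxidises methylcytosine in the zygote, fell, with 16.2 and 17.8 FPKM at the 4-cell stage against 81.0 and 87.8 FPKM at the 2-cell stage.

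Of 30 genes of linker histones, histone variants and their chaperones, 11 rose and 10 fell, near the shares over all members (31.4% and 35.6%). Hist1h1a, an H1 subtype, had 375 and 411 FPKM at the 4-cell stage against 1508 and 1377 FPKM at the 2-cell stage, and the oocyte form H1foo had 11.8 and 14.8 FPKM against 26.1 and 38.9 FPKM. Hist1h1b, Hist1h1c, Hist1h1d and Hist1h1e all rose, by 2.27 to 3.0 on the log2 scale; Hist1h1c had 127 and 133 FPKM at the 4-cell stage against 18.4 and 12.8 FPKM at the 2-cell stage. Among nuclear import receptors, Kpna4 had 47.6 and 45.6 FPKM at the 4-cell stage against 1.8 and 2.76 FPKM at the 2-cell stage, while Kpna6 had 11.5 and 7.98 FPKM against 56.4 and 54.6 FPKM. Over all 26 importins and exportins, 11 rose and 7 fell.

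Of 24 pluripotency genes, 12 rose and 7 fell, beside shares of 31.4% higher and 35.6% lower over all members. Klf5 had 160 and 146 FPKM at the 4-cell stage against 37.2 and 31.9 FPKM at the 2-cell stage, and Klf2 had 51.5 and 52.0 FPKM against 4.93 and 7.47 FPKM; both are zinc finger factors of the naive state. Nanog, a homeobox factor of the epiblast, had 5.36 and 6.67 FPKM at the 4-cell stage, and 0 and 0.286 FPKM at the 2-cell stage. Pou5f1, which encodes OCT4, was not called, with 37.9 and 59.3 FPKM against 57.4 and 54.3 FPKM. Lin28a, which blocks maturation of let-7, fell, with 10.1 and 6.21 FPKM at the 4-cell stage against 45.6 and 40.2 FPKM at the 2-cell stage.

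Of 23 listed trophectoderm genes, 18 were tested and 14 were members, of which 8 rose and 2 fell (1 with rescaled libraries). Over the members of all kinds, 31.4% rose and 35.6% fell. The median change of the trophectoderm list was 1.48 over its members and 0.61 over those tested. Aqp3, a water and glycerol channel, had 17.5 and 19.6 FPKM at the 4-cell stage against 0.114 and 0.320 FPKM at the 2-cell stage. Tead4, the DNA-binding factor of the Hippo pathway in this lineage, had 55.3 and 54.5 FPKM against 18.2 and 22.0 FPKM. Yap1, its coactivator, fell, with 42.9 and 48.6 FPKM at the 4-cell stage against 297 and 288 FPKM at the 2-cell stage, and the kinase that restrains it, Lats2, rose, with 8.05 and 7.08 FPKM against 0.270 and 0.0811 FPKM. Of the 6 primitive endoderm genes, Gata6 rose, with 8.28 and 11.1 FPKM at the 4-cell stage against 0.104 and 0.154 FPKM at the 2-cell stage, and the other 5 fell (3 with rescaled libraries), Gata4 among them with 25.1 and 27.5 FPKM against 41.7 and 48.0 FPKM.

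Of 29 adhesion, junction and polarity genes, 13 rose and 9 fell. The gap junction gene Gja1 had 68.1 and 54.7 FPKM at the 4-cell stage against 4.62 and 5.92 FPKM at the 2-cell stage. Cdh1, E-cadherin, the adhesion protein of compaction, had 42.0 and 45.6 FPKM against 21.4 and 20.9 FPKM. Of the genes of the apical PAR complex on the list, Pard3, Pard6b, Pard6g and Prkci fell and Pard6a and Prkcz were not called. Pard3 had 6.39 and 21.7 FPKM at the 4-cell stage against 142 and 124 FPKM at the 2-cell stage, Pard6b had 2.27 and 2.83 FPKM against 22.9 and 23.8 FPKM, and Prkci had 7.37 and 7.63 FPKM against 30.9 and 23.2 FPKM. Of 19 FGF signalling genes, 8 rose and 9 fell, beside shares of 31.4% and 35.6% over all members. Spry4, a feedback inhibitor of the pathway, had 7.73 and 8.37 FPKM at the 4-cell stage against 148 and 147 FPKM at the 2-cell stage, and the ligand Fgf4 had 3.82 and 4.03 FPKM against 13.0 and 12.1 FPKM. The receptor Fgfr2 rose, with 15.5 and 13.5 FPKM at the 4-cell stage against 5.09 and 1.73 FPKM at the 2-cell stage.

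Over all members, 31.4% rose and 35.6% fell. Of 20 integrated stress response genes, 8 rose and 9 fell: Asns, asparagine synthetase, had 5.01 and 7.57 FPKM at the 4-cell stage against 0.0336 and 0.139 FPKM at the 2-cell stage, whereas Trib3, a pseudokinase of the same response, had 3.77 and 4.41 FPKM against 38.8 and 36.9 FPKM. Of 20 genes of p53 and its targets, 7 rose and 8 fell. Mdm4, an inhibitor of p53, had 32.5 and 34.4 FPKM at the 4-cell stage against 340 and 328 FPKM at the 2-cell stage, and Rrm2b, the p53-regulated ribonucleotide reductase subunit, had 8.84 and 10.1 FPKM against 124 in both 2-cell libraries. Bax, the pro-apoptotic target, rose, with 7.76 and 10.7 FPKM at the 4-cell stage against 2.04 and 1.8 FPKM at the 2-cell stage.

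The counts below stand beside shares of 31.4% higher and 35.6% lower over all members. Of 15 imprinted genes with germline DNA methylation, 5 rose and 6 fell. Of 27 listed genes imprinted through maternal H3K27me3, 14 were tested and 8 were members, of which 5 rose and 2 fell (1 with rescaled libraries). The median change of this second list was 1.06 over the members and 0.68 over those tested. Xist, the RNA that silences the X chromosome and a member of the second list, had 3.20 and 4.00 FPKM at the 4-cell stage against 0.0526 and 0.0559 FPKM at the 2-cell stage. Igf2r, imprinted and expressed from the maternal allele in most mouse tissues, had 124 and 144 FPKM against 30.8 and 29.3 FPKM. Kdm5d, a Y-linked demethylase gene, had 6.16 and 7.82 FPKM at the 4-cell stage against 0.219 and 0.295 FPKM at the 2-cell stage. Of 101 listed developmental transcription factors, 37 were tested and 18 were members, of which 9 rose and 6 fell. Their median change was 0.95 over the members and -0.001 over those tested, so the higher median follows in part from the choice of members. Pax6 had 13.9 and 15.3 FPKM at the 4-cell stage against 0.429 and 1.3 FPKM at the 2-cell stage, and Hoxa7 had 0.221 and 0.488 FPKM against 12.4 and 11.9 FPKM. Of 23 germline genes, 3 rose and 12 fell, Dazl, an RNA-binding protein of germ cells, with 1.0 and 2.39 FPKM at the 4-cell stage against 20.6 and 19.8 FPKM at the 2-cell stage. Of 33 genes of the RNA polymerase II machinery, 13 rose and 9 fell, and of 16 DNA methylation genes, 3 rose and 5 fell (6 and 3 with rescaled libraries). Of 7 Obox homeobox genes, 1 rose and 5 fell, and of 7 oocyte transcription factors, 1 rose and 5 fell. Of 12 amino acid transporters, 4 rose and 6 fell, and of 14 X-linked marker genes, 5 rose and 5 fell. Of 12 noncoding RNAs, 7 rose and 2 fell; Rmrp, the RNA of RNase MRP, had 1948 and 2147 FPKM at the 4-cell stage against 195 and 182 FPKM at the 2-cell stage.

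The earlier interval, late 2-cell embryos against MII oocytes, shares no library with the stage change; its cross differs from that of the PR-DUB pools. Of the 13237 genes tested there, 38% were called higher and 44.6% lower. Of 3955 members lower in the earlier interval, 1946 (49.2%) fell again at the 4-cell stage and 842 (21.3%) rose. Of 4525 members higher in late 2-cell embryos, 1562 (34.5%) rose further and 1303 (28.8%) fell, and of 2031 not called there, 499 rose and 868 fell. The remaining 1443 were not tested in that table, and 852 (59.0%) of them rose; 894 of the 1443 became members through the 4-cell stage only, so this share follows in part from the choice of members.

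**Figure D4:**
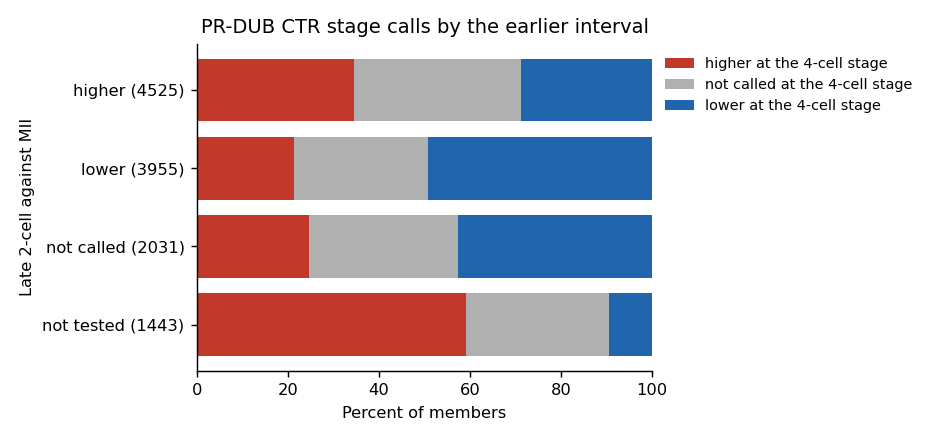
Share of members that rose (red), were not called (grey) or fell (blue) at the 4-cell stage, by their call in late 2-cell embryos against MII oocytes (numbers of members in brackets). The share that fell was 28.8% among members higher in the earlier interval and 49.2% among members lower in it.

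The lists differed in their path over both intervals. Of the ribosomal proteins, 73 were already higher after the earlier interval and 4 lower. Of the proteasome subunits, 8 were higher and 20 lower in the earlier interval, and of the nuclear oxidative phosphorylation subunits, 18 were higher and 40 lower. Psma7 had a log2 change of -4.37 in late 2-cell embryos against oocytes and of 3.52 at the 4-cell stage against the 2-cell stage. The oocyte-secreted and zona genes were lower for 12 of 12 in the earlier interval. Bmi1, Phc2 and Cbx2 rose by 0.90, 1.92 and 0.71 on the log2 scale in the earlier interval, and had log2 changes of -4.14, -3.97 and -3.51 at the 4-cell stage. Ccne1 rose by 6.70 in the earlier interval and fell by 1.48 at the 4-cell stage.

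The genes listed here as transient 2-cell genes were mostly not lower at the 4-cell stage. Of 40 such members, 11 rose, 2 fell and 27 were not called, with a median change of 0.53 (all members: 31.4% rose, 35.6% fell). With the 4 libraries fitted alone, 17 rose and 5 fell. In the earlier interval, late 2-cell embryos against MII oocytes, 32 of the 40 were higher and 4 lower, so the list is not uniform. Zfp352, a zinc finger gene, had 54.4 and 48.4 FPKM at the 4-cell stage against 61.6 and 73.1 FPKM at the 2-cell stage. Usp17lc, a deubiquitinase gene, had 51.6 and 46.8 FPKM against 61.8 and 61.9 FPKM. Zscan4c had 8.63 and 7.87 FPKM at the 4-cell stage against 3.21 and 4.08 FPKM at the 2-cell stage, and Zscan4d differed within both stages, at 11.7 and 1.52 FPKM against 8.34 and 0.912 FPKM. None of these 4 was called, with the spread of each gene estimated over all 16 libraries. Tcstv3 was called lower, with 26.2 and 20.4 FPKM at the 4-cell stage against 57.3 and 55.5 FPKM at the 2-cell stage. The Trim43 genes rose: Trim43a had 360 and 380 FPKM against 109 and 102 FPKM, and Trim43b had 618 and 674 FPKM against 212 and 198 FPKM. Pramel7 also rose, with 201 and 234 FPKM at the 4-cell stage against 96.7 and 88.7 FPKM at the 2-cell stage. These families hold near-identical copies, between which reads can be split.

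Upstream sequences are shown for 2 of the transient genes that rose, both of which hold GGTGTGG, a motif bound by KLF factors, in the 150 bases before the RefSeq start (GRCm38.p6; capitals mark it or its reverse complement). Both lie on the plus strand, Trim43a at chr9:88580741-88580890 and Ubtfl1 at chr9:18404268-18404417.
Trim43a: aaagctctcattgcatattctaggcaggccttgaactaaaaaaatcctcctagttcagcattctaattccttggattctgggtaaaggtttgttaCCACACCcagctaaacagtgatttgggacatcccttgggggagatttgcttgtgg
Ubtfl1: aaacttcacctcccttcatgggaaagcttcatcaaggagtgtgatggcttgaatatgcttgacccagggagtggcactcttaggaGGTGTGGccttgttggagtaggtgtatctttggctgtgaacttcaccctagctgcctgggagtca

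GGTGTGG was present, on either strand of the 300-base window, for 11 of 21 transient members with 1 RefSeq window (52.4%), against 7.79% of all 15529 genes. CAAGGTCA, a site of NR5A nuclear receptors, was present for 4 of the 21 (19.0%) against 1.31% of all genes, and CCGGAAG for 0 of the 21. Other motifs were also more frequent among the 21 than among all genes: TAATCC at 28.6% against 7.04%, CCAAT at 66.7% against 38.7% and TATAAA at 33.3% against 13.5%. Several of the 21 genes are copies within a family and share promoter sequence, so they are not independent; 12 motifs were searched in all.

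The stage change was set against that of the KDM6B CTR embryos. In those libraries Kdm6b itself stood at 570.9 and 400.6 FPKM at the 4-cell stage and 14590 and 14740 FPKM at the 2-cell stage, against 5.31 and 5.24 FPKM at the 4-cell stage and 21.1 and 23.1 FPKM at the 2-cell stage in the PR-DUB CTR embryos, although both carry control labels. The protocols of the KDM6B CTR 4-cell libraries name 2 possible sequencers and those of the other libraries 1, so a difference of instrument and one of stage cannot be told apart there. Of the 3755 members that rose in the PR-DUB CTR embryos, 2941 (78.3%) were called higher and 85 (2.26%) lower in the KDM6B CTR embryos, where 38% of all genes tested were called higher and 26.1% lower. Of the 4254 that fell, 2751 (64.7%) were called lower there and 404 (9.5%) higher. The difference between the 2 stage changes passed the test for 910 members with a higher and 3070 with a lower change in the PR-DUB CTR embryos, against 6.84% and 22.7% of all genes tested (29.5% in all); with rescaled libraries the split was 1889 and 1492. Rescaling moved the median difference over all genes tested to 0.09, against -0.32 before. Over all genes tested it gave 2080 higher and 1749 lower, whereas scaling to the protein-coding total gave 1131 higher and 3091 lower. The direction of the split thus depended on the scaling.

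In the KDM6B CTR embryos 8 of the 40 rose and 22 fell. The difference was called higher for 21 and lower for 7 of them in the PR-DUB CTR embryos. Zfp352 had 19.9 and 3.92 FPKM at the 4-cell stage against 155 and 202 FPKM at the 2-cell stage in the KDM6B CTR embryos, and the stage changes differed by 3.75 ± 0.90 (log2, SE; limma adjusted p = 0.00801). Usp17lc had 8.40 and 5.14 FPKM at the 4-cell stage against 127 and 100.1 FPKM at the 2-cell stage there, a difference of 3.58 ± 0.81 (limma adjusted p = 0.00593). Both genes were called lower at the 4-cell stage in the KDM6B CTR embryos and were not called in the PR-DUB CTR embryos. Trim43a, Trim43b, Trim43c, Pramel6 and Pramel7 rose in both, and the difference was called lower in the PR-DUB CTR embryos: Pramel7 had 580 and 380 FPKM at the 4-cell stage against 33.6 and 36.2 FPKM at the 2-cell stage in the KDM6B CTR embryos, a difference of -2.49 ± 0.33 (limma adjusted p = 0.000244).

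**Figure D5:**
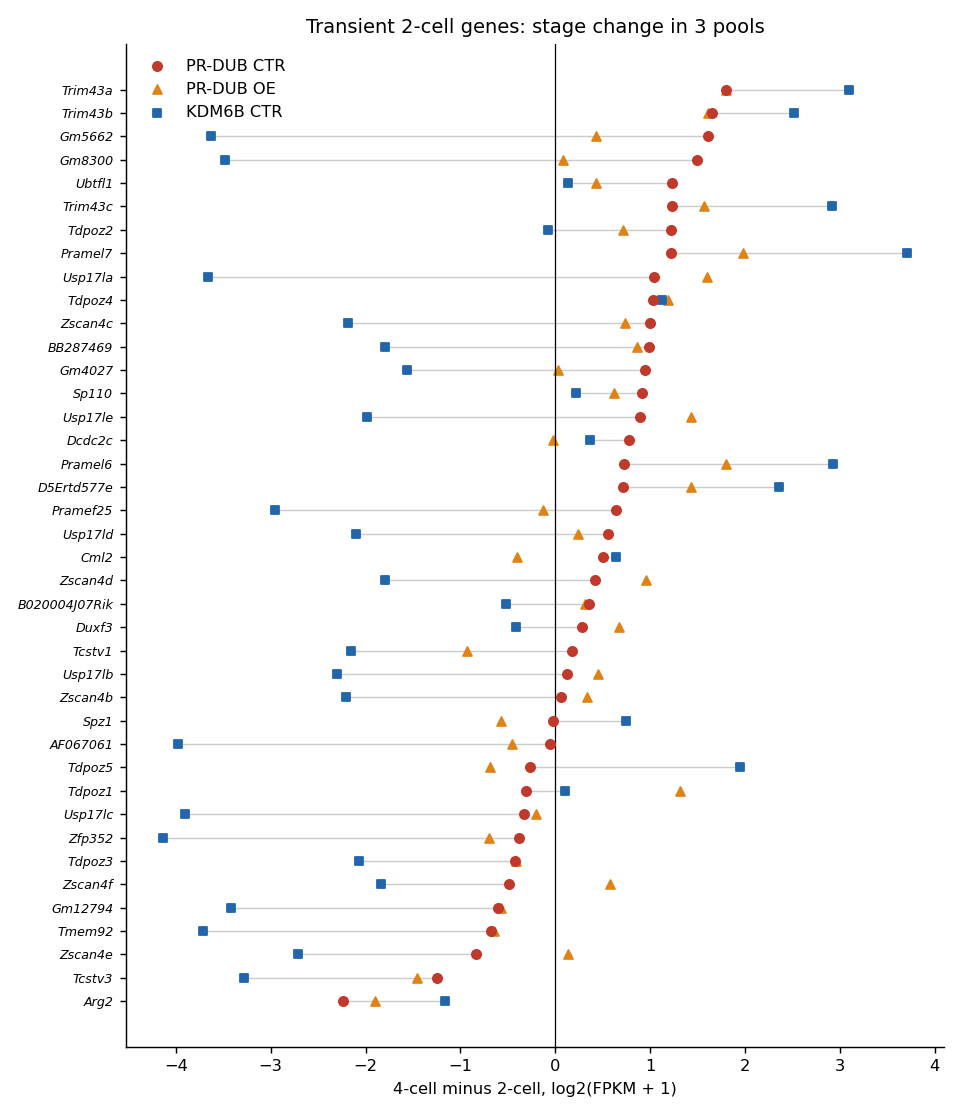
Stage change (4-cell minus 2-cell, log2(FPKM + 1)) of the 40 transient 2-cell genes in PR-DUB CTR (red circles), PR-DUB OE (orange triangles) and KDM6B CTR embryos (blue squares), ordered by the first. For Zfp352 the PR-DUB CTR point lies at -0.38 and the KDM6B CTR point at -4.13; for Pramel7 they lie at 1.22 and 3.71.

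The stage change was also set against that of the PR-DUB OE embryos. Of the 3755 members that rose in the PR-DUB CTR embryos, 2999 (79.9%) were called higher and 18 (0.479%) lower in the PR-DUB OE embryos, where 29.3% of all genes tested were called higher and 28.8% lower. Of the 4254 that fell, 3378 (79.4%) were called lower there and 34 (0.799%) higher. The difference between these stage changes passed the test for 101 members with a higher and 126 with a lower change in the PR-DUB CTR embryos. The shares of all genes tested were 0.711% and 1.03% (1.74% in all). With rescaled libraries the split over members was 168 and 78. Over all genes tested it was 174 and 103 with rescaled libraries, and 128 and 136 with the protein-coding total. Over all genes tested, 262 were called with every library, and 22 to 138 in fits without 1 of the libraries. Pdcd5 was not called in the PR-DUB CTR embryos, with 3.22 and 5.32 FPKM at the 4-cell stage against 2.56 and 9.30 FPKM at the 2-cell stage, and had 22.5 and 19.2 FPKM against 3.30 and 1.93 FPKM in the PR-DUB OE embryos, a difference of -2.85 ± 0.58 (limma adjusted p = 0.0349). The transient genes gave 11 higher and 2 lower calls in the PR-DUB OE embryos as well; 4-cell values there were far apart for several of them, such as Zfp352 with 101.9 and 24.1 FPKM.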

How the data were processed

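RNA was measured by RNA-seq in pooled mouse embryos (SMART-Seq Stranded kit, paired-end reads, per the labels' protocols). The deposited values are FPKM per gene. The submitters' processing notes name StringTie 1.3.3b, the aligner HISAT2 2.1.0, the trimmer Trim Galore 0.6.5 and build mm10. No source used here gives the annotation release or the strand setting. Reads of near-identical copies may be split between them, and read counts were not used.

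Genes with at least 1 FPKM in 2 or more of the 16 libraries of the table were tested (15055) on log2(FPKM + 1) with limma 3.58.1 in R 4.3.3 (8 group means, 8 residual degrees of freedom, trended prior), with Benjamini-Hochberg adjustment and a threshold of 0.05. An exact permutation test of 2 libraries against 2 cannot give a two-sided p under 0.333, so none was run. Late 2-cell embryos (columns headed 30 hours after fertilization) and MII oocytes were fitted in their own table, which was normalized separately. On simulated data for the 4-cell against 2-cell comparison (15055 genes), 66% of genes with a true log2 change of 1 and 78% of those at 2 were recovered, as were 68% at -1 and 90% at -2. The changed genes were drawn only from those above 5 FPKM at the 2-cell stage, so recovery of lower genes was not simulated. Far fewer genes were changed in the simulation than the 8532 called in the data, which made its Benjamini-Hochberg threshold stricter. The simulated shares therefore do not give the recovery in the data. Among the unchanged genes, 11 were called.

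Biotypes and lengths came from GENCODE vM21, in which 45229 of 46078 IDs were found; a symbol with several IDs took the one on a chromosome. Date-like names of 27 genes were restored from that annotation. The members, the 47 gene lists and the tests were chosen with earlier results of these data known. Named genes are the 15 protein-coding members with the largest rise and the 15 with the largest fall (called, also after rescaling, not overlapping, mean of at least 10 FPKM at the higher stage), genes of the lists, the 5 of highest level per stage and the 5 extreme members of each difference between stage changes. Alternatives were another pseudocount (0.1), no filter or a filter of 5 FPKM, rescaled libraries, the protein-coding total, no trend, a replicate block, fewer libraries and leaving out each library.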

Additional observations from a re-analysis of the deposited data

Results flagged for a closer look

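The stage change of the PR-DUB CTR embryos differed from that of the KDM6B CTR embryos for 4443 genes of all tested, and from that of the PR-DUB OE embryos for 262, by limma's test of the difference. All values below are such differences on the log2 scale, PR-DUB CTR first. The causes were not tested.

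Against the KDM6B CTR embryos, the members with the lowest differences were Rn7s6 (-7.39), Gm25911 (-6.82), Gm24447 (-6.78), Gm28062 (-6.13) and Rpl36a-ps3 (-5.48), and those with the highest were Gm5698 (8.19), Gm5699 (7.17), Gm5039 (6.72), Gm16243 (6.23) and Gm5662 (5.25). Rn7s6 had 16.5 and 13.1 FPKM at the 4-cell stage against 13.9 and 15.7 FPKM at the 2-cell stage in the PR-DUB CTR embryos, and 1652 and 1816 FPKM at the 4-cell stage against 12.9 and 6.78 FPKM at the 2-cell stage in the KDM6B CTR embryos.

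Among the transient 2-cell genes the difference was positive for Zscan4c (3.18), Tcstv1 (2.33), Tcstv3 (2.03), Usp17la (4.71), Usp17lb (2.43), Usp17lc (3.58), Usp17ld (2.65), Usp17le (2.88), Tdpoz2 (1.3), Tdpoz3 (1.65) and Zfp352 (3.75). It was also positive for Sp110 (0.70), Tmem92 (3.04), Ubtfl1 (1.10), BB287469 (2.79), AF067061 (3.93), Gm8300 (4.98), Pramef25 (3.59), Gm4027 (2.51), Gm12794 (2.82) and Gm5662 (5.25). It was negative for Tdpoz5 (-2.21), Trim43a (-1.3), Trim43b (-0.87), Trim43c (-1.69), Pramel6 (-2.20), Pramel7 (-2.49) and D5Ertd577e (-1.64).

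Against the PR-DUB OE embryos, the lowest differences were those of Gm25911 (-5.72), Gm25745 (-4.09), Meaf6 (-2.92), Pdcd5 (-2.85) and Anp32a (-2.80), and the highest those of 1700003E24Rik (4.73), Gm25951 (4.19), Gm25371 (4.17), 1700084M14Rik (3.63) and Gtpbp4-ps3 (3.58).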

How the results depend on the processing

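The number of genes called between the 4-cell and the 2-cell stage, 8532, was 6654 to 8781 under the settings that kept all 4 libraries and 7265 to 7339 with 1 of them left out. The difference from the KDM6B CTR stage change, 4443 genes, was 3379 to 4081 with a library left out. The difference from the PR-DUB OE stage change, 262 genes, moved most: it was 140 with a pseudocount of 0.1, 139 with the 8 PR-DUB libraries alone (chosen after seeing the data) and 22 to 138 with a library left out; the cause was not tested beyond the smaller number of libraries. Late 2-cell embryos against MII oocytes gave 10944 genes, and 8713 to 10138 with a library left out. Of 263 named genes, 248 to 261 kept their call and direction under each setting. Rpl41, not called with all libraries, had log2 changes of -0.49 to 1.93 with a PR-DUB CTR library left out; it was called lower, at -0.49, without replicate 2 of the 2-cell stage, and higher, at 1.93, without replicate 1. Rescaling moved the median of all genes tested to 0.04, against -0.04.

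With replicate number as a block, 8459 genes were called between the stages (7614 with the 4 libraries alone), 4377 and 207 for the differences from KDM6B CTR and PR-DUB OE, and 11125 in the earlier interval. The numbers do not pair the samples: the correlation of their deviations was -0.039 between the 4-cell and 2-cell libraries. At 1 FPKM a transcript rested on few fragments, which limits low genes.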
